A study of Mus musculus with 28 samples.

Results

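The TREM receptor family was examined in mouse bone marrow derived macrophages through 7 genes. These were the receptors Trem1, Trem2, Trem3, Treml1, Treml2 and Treml4, and Tyrobp, which encodes DAP12, the adaptor of several of them. Every probe set annotated to 1 of these symbols was taken, which gave 12 probe sets of the 45037 non-control probe sets on the array, and 7 genes of 18193. All 7 genes had at least 1 probe set, with 4 for Treml2 and 2 each for Trem1 and Trem2. No probe set was removed for a low value.

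The cells came from 12-week-old C57BL/6 J mice, either Nrf2 +/+ (here wild type) or Nrf2 -/- (here knockout; the symbol of the deleted gene is Nfe2l2). Each of the 7 groups held 4 arrays, which the study's design text calls biological replicates. In the compound experiment, 16 arrays, cells of both genotypes received either DMSO or RA839, a small molecule that binds KEAP1 without a covalent bond. Incubation lasted 4 h, and the controls carried the same DMSO concentration of 0.2% as the treated cells. In the siRNA experiment, 12 arrays of wild type cells only, cells received siControl, siKeap1-1 or siKeap1-2. The sources used here do not give the dose of RA839, the siRNA sequences, the time after transfection or the origin of the null allele. The design text writes RA838 where the labels write RA839. Values are log2 expression values made with RMA, a method that combines the probes of a probe set into 1 number. Arrays of the 2 experiments had been normalized apart, so levels are compared only within an experiment.

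TREM receptors are single-pass surface proteins of myeloid cells and platelets with an immunoglobulin-like domain, and most of their genes lie side by side in the genome. Several of them have almost no signalling tail and pair with DAP12, whose tyrosine motif is phosphorylated by SRC kinases and then recruits SYK. In macrophages TREM1 amplifies inflammatory signals, whereas TREM2 binds lipids, lipoproteins and cell debris and supports survival and phagocytosis. NRF2 is the transcription factor that KEAP1 marks for degradation. A KEAP1 binder or a Keap1 siRNA therefore lets NRF2 accumulate.

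The deleted and silenced genes followed their labels. Nfe2l2 had a mean log2 value of 12.72 in wild type DMSO cells and 3.40 in knockout DMSO cells. Keap1 had 11.09 in siControl cells, 9.06 in siKeap1-1 cells and 9.26 in siKeap1-2 cells. RA839 raised 7 of the 11 NRF2 core targets with a probe set in wild type and 0 in knockout, while siKeap1-1 raised 9 and siKeap1-2 raised 10. All 8 macrophage markers, among them Cd68, Adgre1 and Csf1r, lay above the median of all probe sets in both experiments. Array medians spanned 5.61 to 5.71 in the compound experiment and 5.91 to 5.96 in the siRNA experiment. The wild type RA839 array 2 stood apart: the 3′ probe set of the Gapdh control exceeded the 5′ one by 3.74 log2 units there and by 0.77 to 1.00 on the other compound arrays. Calls and list counts given below that leaving out this array changed are printed with and without it. Without it, 6 NRF2 core targets in place of 7 passed with RA839 in wild type.

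Treml4, a receptor that binds dying cells and has been linked to Toll-like receptor 7 signalling, carried the largest differences in the family. Its promoter is printed because the gene moved with both the loss of Nrf2 and the loss of Keap1. The sequence is from RefSeq, GRCm38.p6, chr17:48264045-48264344, plus strand, 250 bases before to 50 after the gene's start. Capitals mark a stretch of 40 bases that occurs there at 2 places with identical letters, 91 bases from start to start.
Treml4 promoter: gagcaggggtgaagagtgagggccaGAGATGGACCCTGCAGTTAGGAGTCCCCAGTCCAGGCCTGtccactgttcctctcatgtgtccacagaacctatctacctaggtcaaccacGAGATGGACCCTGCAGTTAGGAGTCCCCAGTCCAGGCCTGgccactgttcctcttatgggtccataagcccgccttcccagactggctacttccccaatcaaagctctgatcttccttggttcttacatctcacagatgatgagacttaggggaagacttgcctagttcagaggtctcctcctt
The letters TGACNNNGC, the core of the antioxidant response element that NRF2 binds together with small MAF proteins, were searched for on both strands. They were found in 4071 of 32851 promoters of this length, which is 12.4%. None of the 4 member promoters in the RefSeq table (Trem1, Trem2, Treml1 and Treml4) held them, and the other 3 members were not matched. This says only that these letters are not in this window. Of 9 NRF2 core targets with a promoter in the table, 5 held them. Matches in Me1, an enzyme that supplies NADPH, and in Pir, whose values ran closely with those of Treml4, are printed for comparison. Pir held a further match that is not printed. Among the other genes closest to Treml4, named below, Ppfibp2 held a match. None was found for Panx1, Coq7 or Gstm1, and whether their promoters were among those searched is not given here. Both printed matches are read along the gene's strand, with the match in capitals. The printed match in Pir lies on the opposite strand and so reads in reverse complement.
Me1, chr9:86695906-86695926, minus strand: ccgccgTGACTCAGCgcttct
Pir, chrX:164269211-164269231, plus strand: agagagGCTGAGTCActcccc

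In the compound experiment, Treml4 (1460014_at) read 7.85, 7.26, 7.88 and 8.04 on the wild type DMSO arrays 1 to 4, a mean of 7.76 ± 0.34 (SD, n = 4). Wild type RA839 arrays read 9.30, 8.29, 9.50 and 9.58, a mean of 9.17 ± 0.60. All 4 treated arrays lay above all 4 DMSO arrays, a separation found, in either direction, in 5.02% of all probe sets. Array 2 was the lowest in both groups. The knockout DMSO arrays read 5.30, 5.98, 4.83 and 5.10 (5.30 ± 0.49), and the knockout RA839 arrays 5.51, 5.89, 5.0 and 4.91 (5.33 ± 0.46). Every knockout array lay below every wild type array, as was so, in either direction, for 26.7% of all probe sets in DMSO and 27.6% under RA839. The knockout groups overlapped each other. The knockout means lay below the experiment's median probe set value of 5.67. The files give no detection calls, so whether Treml4 was above background in knockout cells is not known.

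In the siRNA experiment the separation was wider. The siControl arrays read 5.89, 6.15, 6.55 and 6.37 (6.24 ± 0.29). The siKeap1-1 arrays read 9.92, 10.34, 10.40 and 10.64 (10.32 ± 0.30), and the siKeap1-2 arrays 9.10, 9.09, 9.48 and 9.59 (9.31 ± 0.26). The 3 groups did not overlap: siKeap1-1 was highest, siKeap1-2 next and siControl lowest. Over all probe sets, 15.7% did not overlap between siKeap1-1 and siControl, 16% between siKeap1-2 and siControl and 10.2% between the siRNAs.

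**Figure D1:**
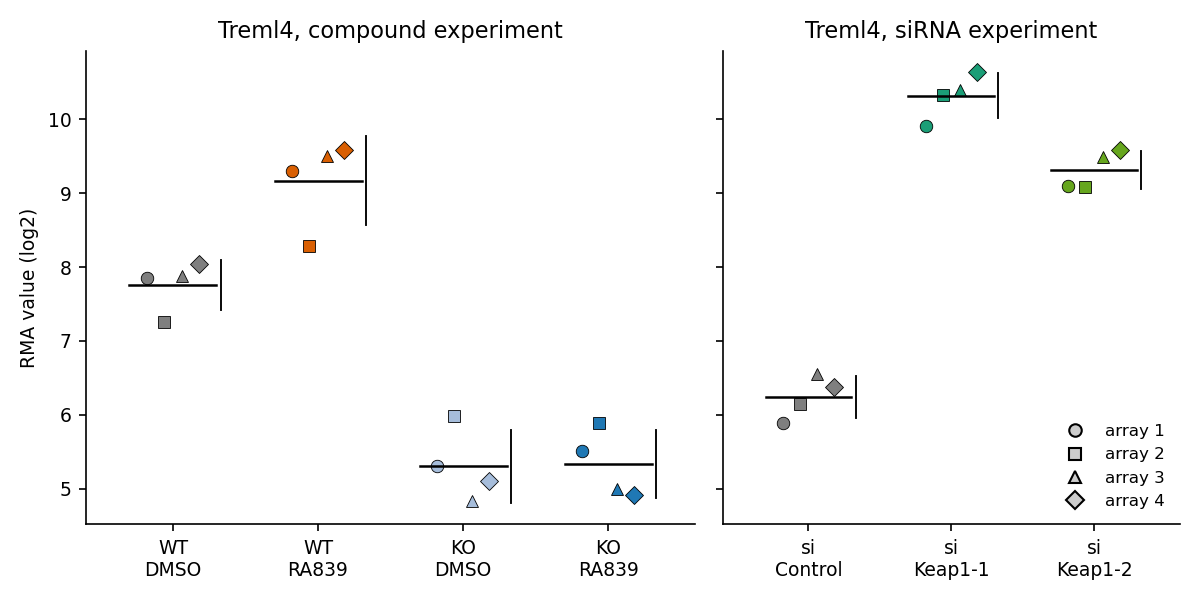
Treml4 RMA values (log2, y axis) on each array in the compound groups (left) and siRNA groups (right), on a shared axis although the experiments were normalized apart. Horizontal lines are group means, vertical lines the SD over 4 arrays, and marker shape gives the array number; wild type RA839 sits at 8.29 to 9.58, knockout cells at 4.83 to 5.98 and siKeap1-1 cells at 9.92 to 10.64.

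Differences were tested with limma over all 45037 probe sets, each experiment fitted apart, with Benjamini-Hochberg adjustment over all probe sets and a threshold of 0.05. With siKeap1-1, Treml4 rose 16.9-fold, a log2 difference of 4.08 ± 0.18 (SE; adjusted p = 1.07e-07, limma). That was the rank 3 increase among all 45037 probe sets. With siKeap1-2 it rose 8.41-fold, a log2 difference of 3.07 ± 0.18 (adjusted p = 1.13e-06), at rank 12. Each of the 4 same-numbered differences was above 0, from 3.85 to 4.26 with siKeap1-1 and from 2.93 to 3.21 with siKeap1-2. The siRNAs also differed from each other: Treml4 was 2.01-fold higher with siKeap1-1 than with siKeap1-2 (log2 difference 1.01 ± 0.18, adjusted p = 0.00719). Keap1 itself was 0.20 log2 units lower with siKeap1-1 than with siKeap1-2, a difference that did not pass (adjusted p = 0.277).

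Loss of Nrf2 went the other way. Treml4 fell 5.49-fold in knockout against wild type cells in DMSO, a log2 difference of -2.46 ± 0.30 (adjusted p = 5.42e-05, limma). Under RA839 the knockout was 14.3-fold lower, a log2 difference of -3.84 ± 0.30 (adjusted p = 3.24e-07). These decreases held ranks 60 and 33 among all probe sets. The comparisons share the fit but not the arrays, although same-numbered arrays varied together within a genotype.

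RA839 in wild type cells gave Treml4 a log2 difference of 1.41 ± 0.30, or 2.66-fold, with a 95% confidence interval of 0.77 to 2.06. It did not pass the threshold (adjusted p = 0.0661, limma), although its rank by size of increase was 37. Within a genotype, arrays with the same number varied together, and with that number as a block within genotype the adjusted p was 0.000561. The 4 same-numbered differences were 1.45, 1.03, 1.62 and 1.54. Without wild type RA839 array 2 the difference was 1.71 (adjusted p = 0.00944), and without both wild type arrays numbered 2 it was 1.54 (adjusted p = 0.0299). It also passed without knockout DMSO array 2, which changes only the shared spread (adjusted p = 0.0475). In knockout cells the difference was 0.03 ± 0.30 (adjusted p = 1), with an interval of -0.62 to 0.67. The difference between the genotypes' responses was 1.38 ± 0.43, with an adjusted p of 0.994 without the block and 0.0126 with it. Without wild type RA839 array 2 and without the block it was 1.68 (adjusted p = 0.209).

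Over the family, 1 of 12 probe sets rose with siKeap1-1 and 1 with siKeap1-2, Treml4 in each case, and 0 fell. Of all probe sets, 9.55% passed with siKeap1-1 (5.18% higher and 4.37% lower) and 6.78% with siKeap1-2 (3.64% higher and 3.14% lower). Between the siRNAs, 1 of 12 passed, again Treml4, against 4.01% of all probe sets (1.82% higher and 2.18% lower with siKeap1-1). With RA839 in wild type cells, 0 of 12 passed, against 0.344% of all probe sets, and 2 of 12 had an unadjusted p under 0.05 in limma. With RA839 in knockout cells 0 of 12 passed, against 0% of all probe sets, and 0 had an unadjusted p under 0.05. The genotype difference of the response passed for 0 of 12, against 0.0377% of all probe sets, with 1 at an unadjusted p under 0.05. Knockout against wild type in DMSO gave 4 of 12, all lower, against 21.3% of all probe sets (9.87% higher and 11.4% lower). Under RA839 it gave 5 of 12, 1 higher and 4 lower, against 26.3% (13.3% higher and 13.0% lower). Passing was common over all probe sets in both genotype comparisons, so these counts alone single out nothing about the family. The median member difference was -0.22 in DMSO and -0.19 under RA839, and the median over all probe sets was -0.00 and 0.01.

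**Figure D2:**
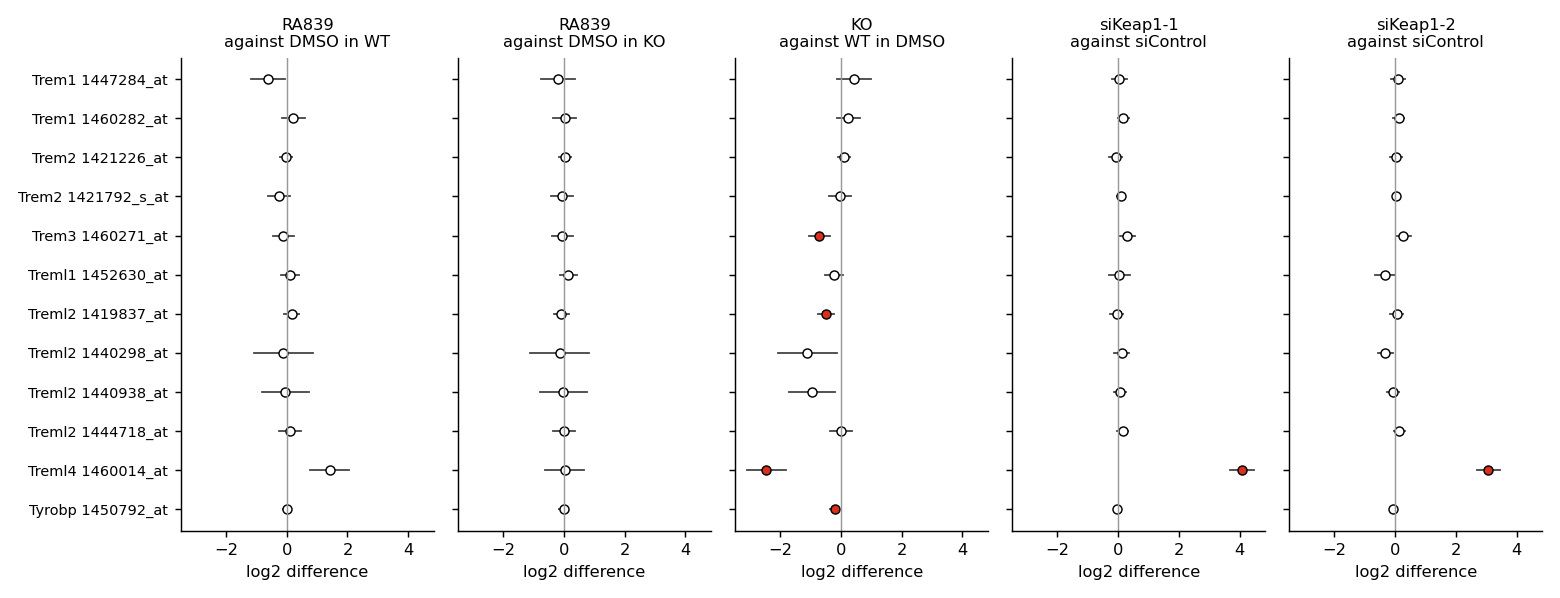
Log2 difference (x axis) of the 12 probe sets (y axis) in 5 comparisons, with the 95% confidence interval as a line. Red points passed an adjusted p of 0.05 in limma and open points did not; Treml4 lies at 4.08 and 3.07 with the siRNAs, and 4 probe sets are red in the genotype comparison.

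Trem1, the amplifier of inflammatory signals, was dim on both of its probe sets, with experiment means of 4.27 to 4.59, below the median of all probe sets. On 1447284_at the wild type DMSO arrays read 4.23, 4.04, 4.62 and 4.57, and the wild type RA839 arrays 3.63, 3.96, 3.63 and 3.80. The 2 groups did not overlap, as was so for 5.02% of all probe sets, but the log2 difference of -0.61 ± 0.26 did not pass (adjusted p = 0.473, limma). Knockout arrays split by number: 5.15 and 5.16 on arrays 1 and 2 and 4.48 and 4.39 on arrays 3 and 4 in DMSO, then 5.09, 5.17, 4.27 and 3.89 under RA839. Under RA839 this probe set was 1.81-fold higher in knockout than in wild type (log2 difference 0.85 ± 0.26, adjusted p = 0.0246), although the groups overlapped. The call was lost without wild type RA839 array 1 or 3 or knockout RA839 array 1 or 2 (adjusted p of 0.0539 to 0.0817), and with those 2 groups fitted alone (0.0533). The other Trem1 probe set, 1460282_at, had a difference of 0.06 in the same comparison (adjusted p = 0.841). In DMSO the differences were 0.43 and 0.24, and neither passed.

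Trem2, the lipid receptor, was among the brightest genes on the array through 1421792_s_at, above 97.3% of all probe sets in the compound experiment and 98.2% in the siRNA experiment. It read 13.27, 13.12, 12.93 and 12.83 on the wild type DMSO arrays and 13.15, 13.10, 12.91 and 12.84 on the knockout DMSO arrays. The wild type RA839 arrays read 13.30, 12.24, 12.85 and 12.79, and the knockout RA839 arrays 13.12, 12.95, 12.93 and 12.79. The groups overlapped throughout, and only the wild type RA839 array 2, which stood apart on the Gapdh control, lay below 12.79. Knockout minus wild type was -0.04 in DMSO, with a 95% interval of -0.40 to 0.33 (adjusted p = 0.907, limma). With siKeap1-1 the difference was 0.09, with an interval of -0.04 to 0.22, and with siKeap1-2 it was 0.04, with an interval of -0.08 to 0.17. None of the 8 comparisons passed for this probe set. The second Trem2 probe set, 1421226_at, was dim, at 5.05 and 5.32 on average. The probe sets did not vary together, with Pearson's r of -0.19 over 16 arrays and -0.14 over 12, given as a description.

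Trem3, a DAP12-coupled receptor found in mice, was low in all groups. The wild type DMSO arrays read 5.27, 5.47, 5.43 and 5.34, and the knockout DMSO arrays 4.70, 4.79, 4.71 and 4.47. All 4 knockout arrays lay below all 4 wild type arrays, a separation found in 26.7% of all probe sets. The fall was 1.64-fold, a log2 difference of -0.71 ± 0.16 (adjusted p = 0.00632, limma). Under RA839 the wild type arrays read 5.60, 4.90, 5.34 and 5.23 and the knockout arrays 4.79, 4.94, 4.12 and 4.62. There the groups overlapped through wild type array 2, and the difference was -0.65 ± 0.16 (adjusted p = 0.00873). Without that array it was -0.78 ± 0.16 (adjusted p = 0.00288). With Keap1 siRNA the differences were 0.31 ± 0.11 and 0.27 ± 0.11, and neither passed (adjusted p = 0.108 and 0.188). Without siKeap1-1 array 2 the first was 0.40 and passed (adjusted p = 0.0422).

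Treml1 encodes TLT-1, a receptor of platelet granules that carries an inhibitory motif in place of a DAP12 partner. It read 9.30, 9.12, 8.91 and 8.79 in wild type DMSO cells and 8.82, 8.58, 8.94 and 8.90 in knockout DMSO cells, with overlap. The difference of -0.22 ± 0.14 did not pass (adjusted p = 0.267, limma). The siControl arrays read 9.19, 9.02, 9.34 and 8.65, the siKeap1-1 arrays 9.23, 9.13, 9.24 and 8.79, and the siKeap1-2 arrays 8.80, 8.74, 8.92 and 8.43. Array 4 was the lowest in every siRNA group. With siKeap1-2 the difference from siControl was -0.33 ± 0.15 and did not pass (adjusted p = 0.261). Each same-numbered difference was below 0, from -0.42 to -0.22, and with the array number as a block the adjusted p was 0.00555. The siKeap1-1 arrays exceeded the siKeap1-2 arrays by 0.38 (adjusted p = 0.248, and 0.00449 with the block).

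Treml2 encodes TLT-2, a receptor found on macrophages, neutrophils and B cells. Its 4 probe sets did not give 1 answer. The brighter ones, 1440298_at and 1440938_at, varied together (Pearson's r of 0.97 over 16 arrays and 0.85 over 12, as a description). On 1440298_at the wild type DMSO arrays read 8.92, 7.99, 9.20 and 9.01 and the knockout DMSO arrays 8.22, 8.73, 6.88 and 6.89. Knockout arrays 3 and 4 were far below every wild type array, whereas knockout array 2 lay within the wild type range. The difference of -1.10 ± 0.46 did not pass (adjusted p = 0.101, limma), and neither did the -0.95 ± 0.36 on 1440938_at (adjusted p = 0.0749). Without knockout DMSO array 2 both passed, at -1.45 (adjusted p = 0.038) and -1.22 (adjusted p = 0.0289), and without wild type DMSO array 2 the second passed (-1.20, adjusted p = 0.0328).

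The knockout RA839 arrays showed the same split of Treml2 on 1440298_at, at 7.91, 8.65, 6.66 and 6.97, against 8.76, 8.12, 9.12 and 8.70 in wild type. Same-numbered knockout arrays varied together over all probe sets (correlations of 0.58 to 0.60), so this may not be a separate observation. The difference of -1.13 ± 0.46 did not pass (adjusted p = 0.0817, limma) and did so without knockout RA839 array 2 (-1.49, adjusted p = 0.0267). On 1440938_at the -0.92 ± 0.36 (adjusted p = 0.0727) passed without that array (adjusted p = 0.0437) or without wild type RA839 array 2 (adjusted p = 0.0406). The dim probe set 1419837_at had tighter groups. It read 4.59, 4.86, 4.64 and 4.22 in wild type DMSO cells and 4.13, 4.10, 3.96 and 4.19 in knockout DMSO cells, without overlap. Such a separation was found in 26.7% of all probe sets. The probe set 1419837_at fell 1.40-fold in DMSO (log2 difference -0.48 ± 0.12, adjusted p = 0.0103, limma) and 1.65-fold under RA839 (-0.73 ± 0.12, adjusted p = 0.000481). The fourth, 1444718_at, was also dim and had differences of 0.00 and -0.11. In the siRNA experiment 1440298_at read 9.76 to 10.36 with siKeap1-1 and 9.56 to 9.74 with siKeap1-2, without overlap, as was so for 10.2% of all probe sets. That difference of 0.44 ± 0.11 missed the threshold (adjusted p = 0.0558) and passed with the array number as a block (adjusted p = 0.0186) or without siKeap1-1 array 1 (0.56, adjusted p = 0.0064). Against siControl, siKeap1-2 gave -0.31 ± 0.11 (adjusted p = 0.14, and 0.0452 when siKeap1-1 array 1 was left out of the fit).

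Tyrobp, the DAP12 adaptor gene, lay above 99.8% of all probe sets in both experiments. Wild type arrays spanned 14.49 to 14.57 over DMSO and RA839 together, and knockout arrays 14.29 to 14.35, with no overlap. Over all probe sets, 26.7% did not overlap between the genotypes in DMSO and 27.6% under RA839. The Tyrobp differences were small and alike in size, -0.21 ± 0.07 in DMSO (1.15-fold lower, adjusted p = 0.0343, limma) and -0.21 ± 0.07 under RA839 (1.16-fold lower, adjusted p = 0.0254). The DMSO call was lost without any of 7 of its 8 arrays in turn, the exception being wild type DMSO array 4 (adjusted p of 0.0593 to 0.0787), with quantile normalization (0.0573) and with those 2 groups fitted alone (0.0758). Under RA839 it was lost without wild type array 3 or knockout array 3 or 4 (0.0559 to 0.063) and with those 2 groups fitted alone (0.0966). With RA839 the difference was 0.00 in each genotype, with an interval of -0.13 to 0.14 in wild type. With siKeap1-1 and siKeap1-2 it was -0.03 and -0.05, and neither passed.

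Read along chromosome 17 in the RefSeq gene order, the cluster ran Trem1, Trem3, Treml4, Treml2, B430306N03Rik, Trem2 and Treml1. B430306N03Rik, listed by RefSeq with the synonym Treml6, is not a member but lies within the cluster. All 7 genes were measured, and 4 of them, adjacent in this order from Trem3 to B430306N03Rik, had a probe set that was lower in knockout cells both in DMSO and under RA839. Of all probe sets, 11.4% and 13.0% were lower there, a share per probe set and not per gene. Trem3 counts through a dim probe set, and Treml2 through 1 dim probe set of its 4. The flanking Trem1, Trem2 and Treml1 had no probe set that passed as lower in either comparison. B430306N03Rik was bright, at 11.58, 11.44, 12.01 and 11.90 on the wild type DMSO arrays and 9.67, 9.81, 9.48 and 9.29 on the knockout DMSO arrays. It fell by 2.17 ± 0.17 in DMSO (adjusted p = 6.86e-07, limma) and by 2.99 ± 0.17 under RA839 (adjusted p = 8.83e-09). In the siRNA experiment, where Treml4 rose by 4.08 and 3.07, its differences were 0.26 with siKeap1-1 (adjusted p = 0.0682) and 0.32 with siKeap1-2 (adjusted p = 0.0342). Tyrobp lies on chromosome 7. Of 13 measured neighbours of the cluster, B430306N03Rik included, 3 were higher and 1 lower in knockout DMSO cells, beside 9.87% and 11.4% of all probe sets. The higher ones were Nfya (0.51), Foxp4 (0.62) and Usp49 (0.66).

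**Figure D3:**
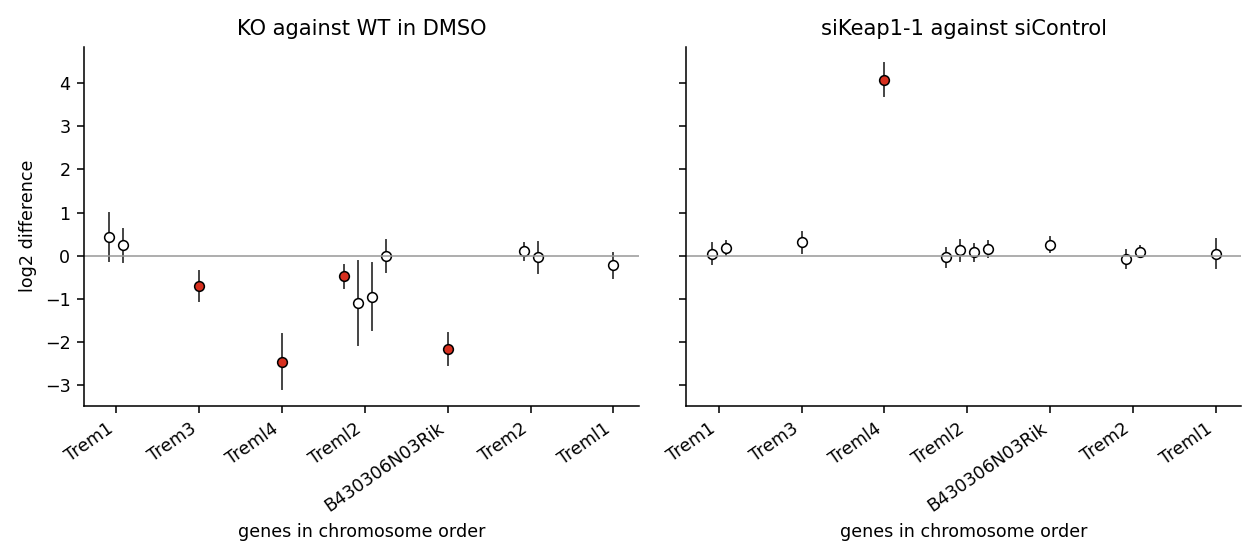
Log2 difference (y axis) of each probe set of the 7 cluster genes, ordered along the chromosome without distances (x axis), for knockout against wild type in DMSO (left) and siKeap1-1 against siControl (right), with 95% intervals. Red points passed an adjusted p of 0.05 in limma: 4 adjacent genes from Trem3 to B430306N03Rik on the left, and Treml4 on the right.

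The genes with the pattern most like Treml4 were taken by Pearson's r over the arrays of an experiment, as a description; the points share groups and arrays. Over 16 compound arrays these were Ppfibp2 (r = 0.987), Pir (r = 0.986) and Panx1 (r = 0.982). Over 12 siRNA arrays they were Coq7 (r = 0.994), Panx1 (r = 0.990) and Gstm1 (r = 0.989), a glutathione transferase whose probe set may also read related genes. Panx1, which encodes a membrane channel, was on both lists. It rose by 1.02 log2 units with RA839 in wild type (adjusted p = 0.00387, limma), by 1.53 with siKeap1-1 and by 1.27 with siKeap1-2, and fell by 2.77 in knockout DMSO cells. Treml4 moved further than Panx1 with the siRNAs, 4.08 and 3.07 against 1.53 and 1.27, a difference between genes that was not tested. In the compound experiment Trem1 was most like Itprip (r = 0.957), Trem3 like Nme5 (r = 0.957), Treml2 (1419837_at) like Ebf3 (r = 0.960) and Tyrobp like Rbp4 (r = 0.982).

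The signalling genes downstream of DAP12 were taken as a list. Of 27 measured signalling genes (30 listed), 0 passed with RA839 in either genotype. In knockout DMSO cells 1 was higher, the SRC-family kinase gene Fyn (0.66 ± 0.16, adjusted p = 0.00917, limma), and 3 were lower. The lower ones were the kinase genes Tec (-0.57) and Fgr (-0.65) and the adaptor gene Lat (-0.93). Under RA839 4 were higher in knockout (Vav1, Grb2, Sos1 and Bcl10, by 0.28 to 0.48) and Tec was lower. These 4 and 5 of 27 stand beside 21.3% and 26.3% of all probe sets that passed. With siKeap1-1 2 rose, Hcst (0.26), which encodes the related adaptor DAP10, and Lat2 (0.32), and 2 fell, Src (-0.56) and Vav2 (-0.41). With siKeap1-2 Hcst rose (0.35), and Src (-0.38) and Vav3 (-0.45) fell. These 4 and 3 of 27 stand beside 9.55% and 6.78% of all probe sets. Syk, the kinase that DAP12 recruits, passed in none of the 8 comparisons. The medians of the list were -0.16 with RA839 in wild type (-0.12 without wild type RA839 array 2), -0.10 in knockout DMSO cells, -0.05 with siKeap1-1 and -0.04 with siKeap1-2. Over all genes they were -0.01, -0.02, 0.02 and 0.03.

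Some other receptors listed as pairing with DAP12 fell with the Keap1 siRNAs. Of 10 measured (12 listed), 4 fell with each siRNA and 0 rose, with medians of -0.36 and -0.56, where 4.37% and 3.14% of all probe sets were lower. Of 8 macrophage markers 2 fell with each siRNA, Fcgr1 and Cd14, and 0 rose. The medians of that list were -0.11 with siKeap1-1 and -0.10 with siKeap1-2, against 0.02 and 0.03 over all genes. The summed level of those 8 was 92834 to 95294 in siControl, 86234 to 89788 in siKeap1-1 and 85851 to 87949 in siKeap1-2, with siControl above both, and its part in these falls was not tested. Sirpb1a, an activating relative of SIRPA, went from 12.29 in siControl to 11.45 with siKeap1-1 (-0.84 ± 0.09, adjusted p = 7.34e-05, limma) and 11.55 with siKeap1-2 (-0.74 ± 0.09, adjusted p = 0.00024). Pilrb1, an activating paired receptor, fell by 0.51 and by 0.98, and Cd300ld fell by 0.31 and by 0.65. Whether Cd300ld pairs with DAP12 was not checked here, and it is 1 of the 4 that fell with each siRNA. Klrd1 fell with siKeap1-1 (-1.02), and Clec5a with siKeap1-2 (-0.68). Between the siRNAs, Clec5a (0.74), Pilrb1 (0.48) and Cd300ld (0.35) were higher with siKeap1-1, beside 1.82% of all probe sets. In the knockout DMSO comparison 1 of 10 passed, Cd300lb, lower by 0.31, beside 21.3% of all probe sets. With RA839 0 passed in either genotype.

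Of 7 measured inhibitory relatives of paired receptors (8 listed), Cd300lf fell with siKeap1-1 (-0.77) and siKeap1-2 (-0.92), and Pilra fell with siKeap1-2 (-0.80). These 1 and 2 of 7 stand beside 4.37% and 3.14% of all probe sets that were lower. Pilra was higher in knockout cells, by 0.71 in DMSO and by 1.10 under RA839. With RA839 in wild type 0 of 7 passed, and 1 without wild type RA839 array 2, Cd300lf at -0.71 (adjusted p = 0.0101). Among 13 measured ligand and processing genes (15 listed), 3 were higher and 1 lower in knockout DMSO cells, again beside 9.87% and 11.4% of all probe sets. Apoe, a lipoprotein that TREM2 binds, was higher by 2.41 ± 0.73 (adjusted p = 0.0284, limma) and Clu, another such lipoprotein, by 2.04 ± 0.54 (adjusted p = 0.0142). Their wild type DMSO arrays were spread, at 11.06, 9.44, 12.65 and 12.47 for Apoe and 7.58, 7.16, 9.27 and 9.57 for Clu. The knockout DMSO arrays read 13.58 to 14.00 for Apoe and 9.66 to 11.09 for Clu. Adam17, a protease that cleaves TREM2 from the surface, was higher by 0.44, and Ms4a6d was lower by 0.27. Apoe fell with both siRNAs, by 0.52 and by 0.51. Of these 13 genes, 1 was higher and 1 lower with siKeap1-1, beside 5.18% and 4.37% of all probe sets. With siKeap1-2, 0 were higher and 2 lower, beside 3.64% and 3.14%. With RA839 0 of 13 passed in either genotype. Of 16 measured genes raised in TREM2-dependent macrophages and microglia, 1 was higher (Apoe) and 4 were lower in knockout DMSO cells, against the same shares: Lipa, Cd9, Fabp5 and Csf1. Lipa, the lysosomal acid lipase gene, fell by 0.88 ± 0.07 (adjusted p = 7.72e-07). Apoe and Ccl6 fell with each siRNA, 2 of 16, beside 4.37% and 3.14% of all probe sets that were lower.

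Markers of other cell types were read beside these results. Of 10 measured neutrophil and precursor markers (12 listed, Ly6g not measured), 4 lay above the median of all probe sets in the compound experiment. In knockout DMSO cells 3 were lower, S100a8, Ctsg and Ltf, and 0 higher, with a list median of -0.32; of all probe sets, 11.4% were lower there. The summed level of the list on the linear scale was 4475 to 4946 on the wild type DMSO arrays and 2064 to 3033 on the knockout DMSO arrays. Its mean log2 value was 6.09, 5.45, 6.07 and 6.09 in wild type DMSO and 5.42, 5.93, 5.04 and 5.12 in knockout DMSO. Array 2 was thus the lowest of the wild type and the highest of the knockout arrays, as it was for Treml4 and for 1440298_at and 1440938_at of Treml2. This order was not particular to the neutrophil list. Array 2 held the same places for the dendritic cell list (5.10 in wild type, 5.87 in knockout) and the platelet list (7.43 and 7.81). In the siRNA experiment the summed level of the neutrophil list was 3729 to 8300 in siControl. It was 5677 to 9228 in siKeap1-1 and 5803 to 11261 in siKeap1-2, with overlap. Of 5 measured platelet markers (7 listed), Ppbp alone rose with both siRNAs, beside 5.18% and 3.64% of all probe sets that were higher. The summed level was 16074 to 16818 in siControl, 17695 to 18413 in siKeap1-1 and 17275 to 17961 in siKeap1-2. Most of this sum was Pf4, with a mean log2 value of 13.97 in siControl. Ppbp, at 7.12 in siControl and 10.14 and 10.15 with the siRNAs, is part of it, so the sum is not a separate observation. In the other lists, siKeap1-1 raised 1 of 10 neutrophil markers and lowered 2 of 6 dendritic cell and 1 of 6 osteoclast markers. With siKeap1-2, 1 osteoclast marker rose and 1 fell, and no neutrophil or dendritic cell marker passed. Of all probe sets, 4.37% and 3.14% were lower with the siRNAs. No B cell, T and NK cell or mast cell marker passed with either siRNA. In the knockout DMSO comparison 0 of 5 B cell, 0 of 6 dendritic cell and 0 of 5 mast cell markers passed, Cd2 was lower among 5 T and NK cell markers, and Mmp9 was higher among 6 osteoclast markers. Of 8 macrophage markers 2 were higher there, Fcgr1 (1.98) and Cd14 (1.83), and 1 was lower, Itgam (-1.04). Beside all these lists stand 9.87% of all probe sets that were higher in knockout DMSO cells and 11.4% that were lower. The summed level of the macrophage list was 79257 to 82347 in wild type and 79529 to 87831 in knockout. The part of these cell types in the results was not tested. In such bulk samples, fewer cells of a type and less RNA per cell cannot be told apart.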

How the data were processed

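Total RNA of 28 mouse macrophage cultures was labelled with biotin and read on an Affymetrix array. The deposited values are log2 expression values per probe set, made by the authors with RMA per the submitters' processing notes; the sources used here give no version of it. The table held 45101 probe sets, and 64 controls were left out. Symbols came from the platform annotation, which named 1 gene for 34945 of the remaining probe sets, several for 932 and none for 9160. The number of arrays limits the precision.

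Each experiment was fitted apart with limma 3.58.1 in R 4.3.3, with 1 coefficient per group, eBayes, two-sided tests and Benjamini-Hochberg adjustment over all 45037 probe sets at 0.05. This gave 8 comparisons. The script was tested on simulated data. Genes of the lists were represented by their probe set with the highest mean over 28 arrays; the members and lists were chosen with earlier results of these data known. All member probe sets are named, and up to 5 passing genes per list, by smallest p. Deviations of same-numbered arrays from their group means correlated at 0.20 to 0.40 in wild type, 0.58 to 0.60 in knockout and 0.11 to 0.63 in the siRNA experiment, but at -0.22 to -0.01 between genotypes. The numbers were therefore taken to pair arrays within a genotype and within the siRNA experiment; the labels do not say what a number shares. Alternatives were another normalization, prior, filter, threshold, weighting, set of arrays or block. No arrays held identical values.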

Additional observations from a re-analysis of the deposited data

Results flagged for a closer look

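The RA839 response of Treml4 differed between the genotypes when the array number was a block within genotype: wild type minus knockout was 1.38 log2 units (adjusted p = 0.0126, limma), against an adjusted p of 0.994 without the block and 1 with a block across all compound groups.

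In 4 of 84 groups of 4 arrays, 1 array stood apart by Dixon's test at its 95% critical value; chance gives about 1 in 20 groups. All 4 concern dim probe sets. Trem1 1460282_at read 4.42 on the wild type DMSO array 3 against 4.12 to 4.14 on the others. The same probe set read 4.55 on siKeap1-1 array 3 against 4.26 to 4.31. Treml2 1419837_at read 4.26 on knockout RA839 array 3 against 3.90 to 3.96. Treml2 1444718_at read 4.17 on wild type DMSO array 2 against 4.73 to 4.78.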

How the results depend on the processing

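Of 96 member values (12 probe sets, 8 comparisons), 12 passed as reported, 24 passed in some setting, and none of these 24 changed sign. The other 72 passed in no setting; 37 of them changed sign, none larger than 0.19. The Treml4 calls for genotype and for each siRNA kept their side of the threshold in every setting run. With RA839 in wild type, 0 member probe sets passed as reported and 1 (Treml4) with 1 probe set per gene, median-centred arrays, array weights, the block within genotype, or without both wild type arrays numbered 2. Leaving out 1 array gave 0 to 1, the latter without wild type RA839 array 2 or knockout DMSO array 2. The replicate block within genotype raised the calls over all probe sets from 155 to 579, and those of the genotype difference of the response from 17 to 61, with 1 member in place of 0. A block across all 4 compound groups, whose numbers pair no arrays between genotypes, gave 189 and 19 and 0 members in each; for the RA839 comparisons it was chosen after seeing the data. For the genotype in DMSO, 4 members became 2 with brighter probe sets only and 2 at a threshold of 0.01 (3 to 5 without 1 array). Under RA839, 5 became 3 with the groups compared alone, 2 with brighter probe sets, 8 with array weights and 3 at 0.01 (3 to 6). With siKeap1-1, leaving out 1 array gave 1 to 2, the latter without siKeap1-1 array 2 (Trem3). With siKeap1-2, 1 became 2 with array weights and with the replicate block (1 to 2). Between the siRNAs, 1 became 2 with a trended robust prior, brighter probe sets, 1 probe set per gene or array weights, and 3 with the replicate block (1 to 2). The brighter filter removes dim members by its construction; the other causes were not tested. Over all probe sets, the replicate block raised the calls from 4301 to 6982 with siKeap1-1, from 3053 to 5674 with siKeap1-2 and from 1804 to 3780 between the siRNAs. Beside the Treml4, Treml1 and Treml2 values given with a block in the results, the blocks changed no member call. For the 6 dim probe sets, signal over background is unknown, since detection calls were not used here. List counts without wild type RA839 array 2 were also added after seeing the data.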
